A study of Triticum aestivum with 24 samples.

Results

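This account concerns 91 transcripts of bread wheat leaves that were near absent in unheated plants and present in every heat library directly after 5 days at 37 °C. A transcript was taken when its mean was under 0.1 CPM over the 4 control libraries of 0 DAT (days after treatment) and at least 2 CPM in each of the 4 heat libraries of 0 DAT. CPM is the estimated count divided by the total count of the library and multiplied by 1000000, with no scaling to transcript length. Of 137056 transcripts 91 met both limits, which is 0.0664%, and they belong to 90 of 110790 genes. The heat and control levels of 0 DAT chose these transcripts, so everything at 0 DAT is given as a description, and only the libraries of 1 and 4 DAT, which the choice did not use, were tested.

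Plants exposed to high temperature activate a set of genes that is almost silent at normal temperature. Heat shock transcription factors bind to the promoters of these genes, and the best known products are heat shock proteins, chaperones that keep other proteins from aggregating. Such transcripts usually decline again once the temperature is lowered. The IDs of the 91 transcripts carried no gene names in the sources used here, apart from 2 with a text in the study's table of microRNA targets. None of them is therefore called a heat shock gene here.

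All plants were Triticum aestivum cv Chinese Spring, descended from 1 selfed plant, grown at 18 °C in the light (16 h a day) and at 16 °C in the dark (8 h a day). The groups were heat 0 DAT, control 0 DAT, heat 1 DAT, control 1 DAT, heat 4 DAT and control 4 DAT, with 4 RNA-seq libraries each. Heat plants spent 5 days at 37 °C from the boot stage and then returned to the regime of the control plants, which had stayed in that regime throughout. Per the study's methods each of the 144 plants gave a leaf at every time and RNA of 18 plants was pooled per replicate. That the RNA-seq libraries came from these pools is inferred from the labels. The design holds 1 genotype, 1 tissue and 1 heat temperature, and the spread between libraries is that between pools, not between single plants. In leaf RNA a higher level per cell and more cells with the transcript cannot be told apart.

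Total counts were 5403461 to 16112270 per library. The leaf label was checked with leaf markers. The Rubisco small chain TraesCS5B01G162800.1 lay between 1482 and 6854 CPM in all libraries. The photosystem II PsbP family protein TraesCS5A01G109600.1 lay between 7.82 and 21.5 CPM. Cytochrome b6-f subunit 4, TraesCSU01G269500.1, lay between 6.12 and 57.3 CPM. At 0 DAT Rubisco was lower in heat (1482 to 2939 CPM) than in control (4136 to 5721 CPM). PsbP (16.2 to 21.5 against 7.82 to 10.7 CPM) and cytochrome b6-f (14.7 to 20.8 against 6.91 to 10.2 CPM) were higher in heat. In 4 libraries TraesCS1A01G000100.1 took over 1% of the counts, namely heat 1 DAT replicate 3 (6.95%), heat 4 DAT replicates 2 (4.57%) and 4 (3.67%), and control 4 DAT replicate 2 (4.34%). Cytochrome b6-f subunit 4 was also highest in these libraries, with 57.3, 37.6, 34.5 and 32.1 CPM in the same order. It was at most 23.9 CPM in all others. Why these libraries differed was not tested. Values with and without these libraries are given where they matter.

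The 2 members with a text were shown with the microRNA sites that the study listed on them, because these are the only sequences at hand that tie a member to a known product. TraesCS7A01G427300.1 is annotated as a xyloglucan endotransglucosylase/hydrolase, an enzyme that cuts and rejoins xyloglucan chains in the cell wall, and carried 2 overlapping sites for members of the miR1137 family. TraesCS2A01G073500.1 is annotated as a glycosyltransferase, an enzyme class that attaches sugars to acceptor molecules, and carried a site for a miR1135 member. Capitals mark Watson-Crick pairs between microRNA and site, lower case marks all other positions including G:U pairs, and all are written 5′ to 3′.
miR1137-310-5p: tCATgTTTCAAccCAGTAgATAAA
its site on TraesCS7A01G427300.1: TTTATtTACTGaaTTGAAAtATGt
miR1137-226-5p: CAAgTCAGTAgATAAAgCcTT
its site on TraesCS7A01G427300.1: AAaGtTTTATtTACTGAaTTG
miR1135-1001-5p: GTAAAGgCacTGTTCATTAAg
its site on TraesCS2A01G073500.1: tTTAATGAACAacGtCTTTAC
The first duplex had 19 Watson-Crick pairs and 5 other positions. Each of the other duplexes had 17 Watson-Crick pairs and 4 other positions. The microRNAs themselves were not measured in these libraries.

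At 0 DAT the members ranged widely in heat. Their group means ran from 2.37 to 274 CPM with a median of 12.2 CPM, and the 10 highest held 47.7% of the summed heat level. The highest was TraesCS3D01G045500.1, with 492, 226, 203 and 175 CPM in heat 0 DAT against 0.0805, 0, 0.0636 and 0.235 CPM in control 0 DAT. It was followed by TraesCS3A01G034500.1 with 146 ± 86.3 CPM, TraesCS2A01G034100.1 with 123 ± 113 CPM and TraesCS4D01G226000.1 with 110 ± 57.3 CPM in heat 0 DAT (SD, n = 4). The other 6 of the highest 10 were TraesCS3D01G045600.1, TraesCS3D01G045700.1, TraesCS4A01G068300.1, TraesCS2B01G047400.1, TraesCS3A01G033900.1 and TraesCS4A01G068200.1, with means of 51.0 to 92.1 CPM. A count of 0 in all 4 control libraries was found for 28 members, and no fold change of 0 DAT is used here.

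**Figure D1:**
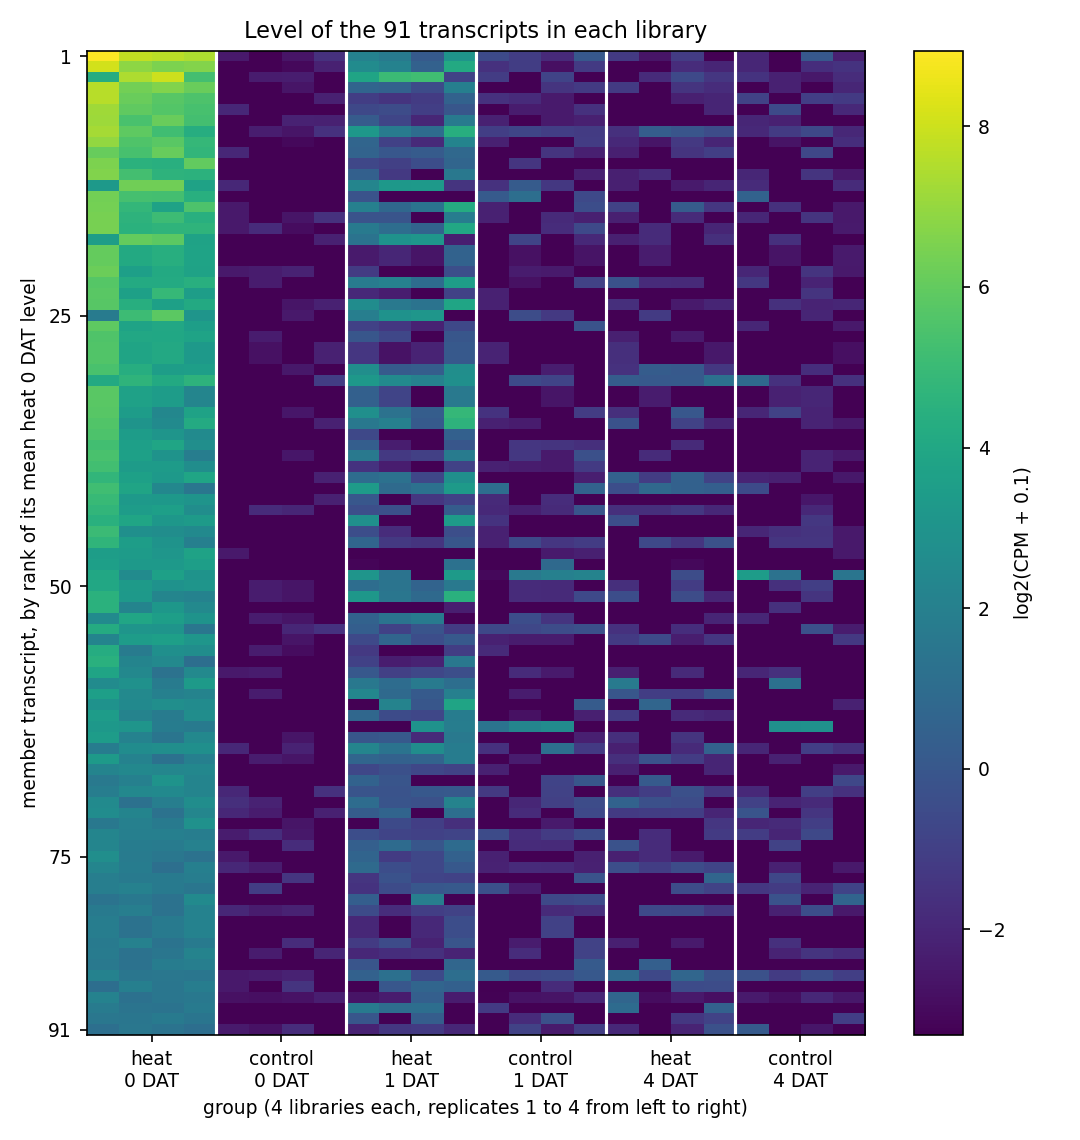
Level of each of the 91 transcripts (rows, ordered by mean heat 0 DAT level) in each of the 24 libraries (columns) as log2(CPM + 0.1). Heat 0 DAT is bright in all rows by the choice of members, heat 1 DAT is intermediate in part of the rows, and heat 4 DAT is about as dark as the control groups.

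The limits cut through a continuum. The members nearest the control limit were TraesCS3A01G113000.1, TraesCS2B01G047400.1 and TraesCS2A01G353100.1 with control 0 DAT means of 0.0998, 0.0992 and 0.0986 CPM. Just outside it lay TraesCS1A01G295600.1, TraesCS6D01G332700.1 and TraesCS5B01G084900.1 with 0.101 CPM each. At the heat limit the lowest heat 0 DAT library was at 2.04 CPM in TraesCS5D01G014400.2, at 2.04 CPM in TraesCS4A01G092700.1 and at 2.05 CPM in TraesCS5A01G276600.1. It was at 2.00 CPM (below the limit before rounding) in TraesCS6A01G350600.1, at 1.97 CPM in TraesCS5B01G005300.1 and at 1.95 CPM in TraesCS7A01G264800.1, which stayed outside.

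The heat libraries differed among themselves in the amount of these transcripts. The summed level of the 91 was 3925, 1873, 1895 and 1336 CPM in heat 0 DAT replicates 1 to 4, and 64 members were highest in replicate 1. At 1 DAT the sum was 190, 147, 138 and 349 CPM in heat replicates 1 to 4, and 54 members were highest in replicate 4. The 33724 transcripts that reached the same heat limit but were on in control 0 DAT also had their highest medians in these libraries. Their median was 10.7, 8.51, 8.93 and 9.30 CPM in heat 0 DAT replicates 1 to 4. In heat 1 DAT it was 6.16, 6.94, 4.79 and 8.83 CPM. How many of all transcripts were highest in these libraries was not counted. What set these libraries apart was not tested.

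A small set went the other way. In 5 members, TraesCS2A01G034100.1, TraesCS2A01G034600.1, TraesCS2D01G033500.1, TraesCS2D01G033900.1 and TraesCS7A01G058400.1, heat 0 DAT replicate 1 was under 0.5 times the mean of replicates 2 and 3, and heat 1 DAT replicate 4 was under 0.1 times the mean of the other 3. These limits were set after the values were seen. The sum of the 5 was 49.4, 369, 464 and 82.0 CPM in heat 0 DAT and 26.3, 59.5, 66.6 and 0.803 CPM in heat 1 DAT, while the other 86 summed to 3876, 1505, 1431 and 1254 CPM in heat 0 DAT and 164, 87.7, 71.4 and 348 CPM in heat 1 DAT. The sum of the 5 was lowest in heat 0 DAT replicate 1 and heat 1 DAT replicate 4, which the limits that picked them largely fixed. The sum of the other 86 was highest in these libraries. TraesCS7A01G058400.1, which lies on another chromosome than the other 4, had 3.35, 33.8, 58.2 and 8.38 CPM in heat 0 DAT and 3.64, 7.40, 8.68 and 0 CPM in heat 1 DAT. The 6 neighbouring genes on 2A and 2D that had a count in heat 0 DAT but were not members followed the same pattern, 6 of 6, although TraesCS2A01G034200 and TraesCS2A01G034300 had identical values and count as 1 observation. Apart from the members, only these neighbours were examined for the pattern. The share of all transcripts that show it was not counted, so the 6 are no independent support. One of the 6, TraesCS2D01G033700, had 38.2, 266, 335 and 58.3 CPM in heat 0 DAT and 16.7, 33.8, 33.5 and 0.879 CPM in heat 1 DAT.

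The summed level dropped over the recovery. It was 2257 ± 1141 CPM in heat against 2.97 ± 0.381 CPM in control at 0 DAT, 206 ± 97.9 CPM in heat against 21.3 ± 5.35 CPM in control at 1 DAT, and 20.2 ± 3.12 CPM in heat against 17.6 ± 4.88 CPM in control at 4 DAT (SD, n = 4 each). At 1 DAT every heat library lay above every control library, which ranged from 14.1 to 25.6 CPM. At 4 DAT the heat libraries, 16.7 to 24.1 CPM, overlapped the control libraries, 10.6 to 21.8 CPM. The members were chosen for a low control level at 0 DAT only, and the control sums of the later times are the ones the choice did not fix. Without the isoforms TraesCS5A01G060400.3 and TraesCS6D01G028300.2, described further on, the remaining 89 summed to 20.0 ± 3.08 CPM in heat and 10.1 ± 1.57 CPM in control at 4 DAT, and the heat libraries (16.7 to 24.1 CPM) then lay above the control libraries (7.96 to 11.6 CPM). That omission was chosen after the values were seen. These 2 had the highest control 4 DAT means of the members, 3.96 and 3.51 CPM, against 0.158 and practically 0 CPM in heat 4 DAT. Leaving them out therefore favours this separation, which is no result. Other members whose gene was on in control through another isoform were kept.

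**Figure D2:**
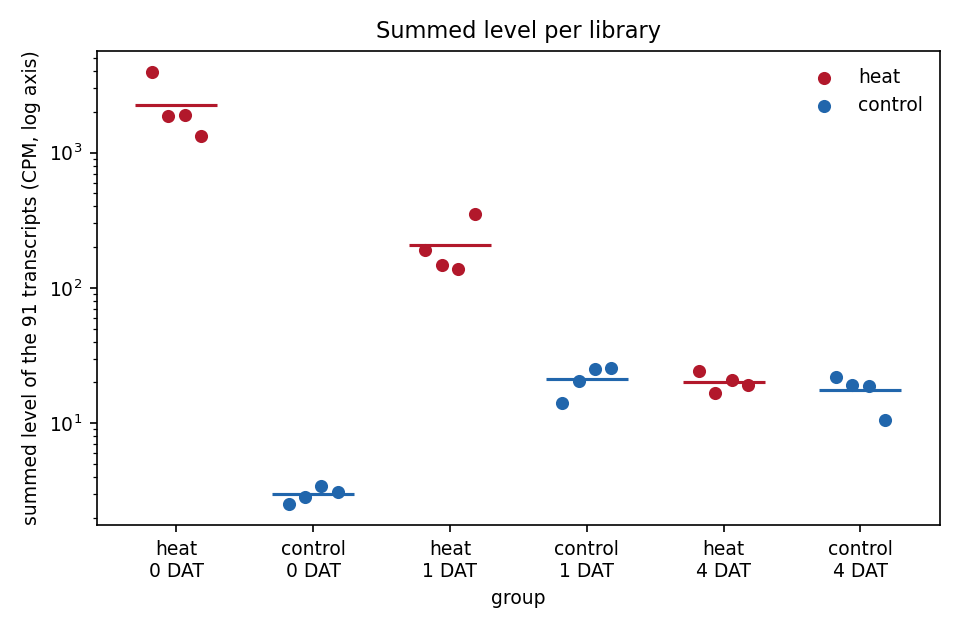
Summed level of the 91 transcripts per library (points, CPM on a log axis) in heat (red) and control (blue) at 0, 1 and 4 DAT, with horizontal lines at the group means. The heat means were 2257, 206 and 20.2 CPM and the control means 2.97, 21.3 and 17.6 CPM.

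Relative to its own heat 0 DAT mean, the median member was at 11.8% in heat 1 DAT and at 1.02% in heat 4 DAT. The range over members was 0 to 85.0% at 1 DAT and 0 to 36.8% at 4 DAT. For comparison, the 33724 transcripts that reached the same heat limit but were already on in control 0 DAT had a median of 70.3% in heat 1 DAT and 66.8% in heat 4 DAT. The members at their low end included TraesCS5B01G089500.1, with 11.3, 10.4, 8.72 and 13.2 CPM in heat 0 DAT and 0 CPM in all 4 heat libraries of 1 DAT. TraesCS1B01G446900.1 was at the other end, with 22.9, 9.63, 4.72 and 4.28 CPM in heat 0 DAT and 8.80, 2.76, 1.75 and 22.0 CPM in heat 1 DAT. These 2 were picked after their values were seen. Since the members were chosen by high heat 0 DAT values, the effect of that choice on these shares and a decline after the heat cannot be told apart.

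At least 2 CPM in each of the 4 heat libraries was met by 3 members at 1 DAT and by 0 members at 4 DAT, against 19.1% and 18.9% of all transcripts. The 3 were TraesCS2B01G385200.2, TraesCS4A01G066100.1 and TraesCS2D01G477800.1. The last of these had 4.63, 2.48, 6.30 and 3.42 CPM in heat 1 DAT against 0.234, 0, 2.15 and 0.329 CPM in control 1 DAT, without overlap, but did not pass the test described next (adjusted p = 0.1 with edgeR). The count at 1 DAT depended on single libraries and was 6 without heat replicate 2, 12 without replicate 3 and 7 without replicate 4.

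The first test asked which members were still higher in heat than in control after 1 day of recovery. By edgeR's quasi-likelihood test with Benjamini-Hochberg adjustment over 54517 transcripts, 40 of the 91 members were higher in heat 1 DAT at an adjusted p under 0.05, none was lower, and 51 were not called. Of all transcripts tested 7.32% were called higher and 6.18% lower. The share of higher calls among all calls was 54.2% with this scaling (trimmed mean of M values, TMM) and 72.1% with scaling by total counts alone, under which 39 members were higher and 0 lower (5.77% and 2.23% of all transcripts). DESeq2 called 48 members higher and 0 lower (9.76% and 8% of all), the likelihood ratio test of edgeR 54 and 0 (8.78% and 7.5% of all), and 0 members were lower at an unadjusted p under 0.05 with the quasi-likelihood test. The median log2 fold change was 3.21 over the members and -0.04 over all transcripts tested, and 88 members had a higher mean CPM in heat than in control. In 37 members all heat libraries lay above all control libraries, which held for 6.97% of the transcripts tested. All 91 members passed the filter on low counts, which they had to because of their heat 0 DAT counts, so the number tested is no result. In a fit to the 8 libraries of 1 DAT alone, 20 members passed the filter and 15 were higher (5.11% of the transcripts tested there higher and 2.91% lower), and at 4 DAT the same kind of fit tested 1 member and called none (0.0024% higher and 0% lower).

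The 8 highest of the 40 in heat 1 DAT differed in how many libraries carried the level. TraesCS2A01G034100.1 had 14.2, 33.0, 36.7 and 0.440 CPM in heat 1 DAT against 0.351, 0, 0.451 and 0 CPM in control 1 DAT. Its heat replicate 4 fell within the control range, so the groups overlapped, and the log2 fold change was 6.72 ± 1.24 (SE, adjusted p = 0.001 with edgeR). TraesCS4D01G180800.1 had 6.85, 2.33, 1.15 and 28.4 CPM in heat 1 DAT against 0.245, 0, 0 and 0.357 CPM in control 1 DAT. The groups did not overlap and replicate 4 was by far the highest, with a log2 fold change of 5.88 ± 1.08 (adjusted p = 0.000912 with edgeR), which was 4.75 without heat 1 DAT replicate 4.

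TraesCS1B01G446900.1, given above for its heat libraries, had 0, 0.184, 0.172 and 0.548 CPM in control 1 DAT. All heat libraries were higher, with a log2 fold change of 5.04 ± 0.83 (adjusted p = 0.00033 with edgeR). TraesCS2B01G047400.1 had 9.22, 3.30, 1.94 and 20.6 CPM in heat 1 DAT against 0.379, 0.499, 0.384 and 0.340 CPM in control 1 DAT. Its control libraries were close together and its heat libraries spanned a wide range above them, with a log2 fold change of 4.30 ± 0.70 (adjusted p = 0.000301 with edgeR). TraesCS3A01G034500.1, the member with the second highest mean at 0 DAT, had 5.99, 4.17, 1.29 and 17.3 CPM in heat 1 DAT against 0.234, 0.367, 0.0429 and 0.329 CPM in control 1 DAT. The groups did not overlap, and the log2 fold change was 4.74 ± 0.66 (adjusted p = 5.31e-05 with edgeR).

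Heat replicate 4 was also the highest in the remaining members of the 8. TraesCS6A01G091400.1 had 2.95, 3.96, 1.03 and 24.4 CPM in heat 1 DAT against 0.117, 0.0918, 0 and 0 CPM in control 1 DAT, and TraesCS5B01G566400.1 had 3.96, 1.59, 2.44 and 18.5 CPM in heat 1 DAT against 0.117, 0, 0 and 0.657 CPM in control 1 DAT. Both were called higher and both stood apart in heat replicate 4. TraesCS4A01G066100.1 had 6.08, 3.04, 2.44 and 14.8 CPM in heat 1 DAT against 0.117, 0, 0 and 0 CPM in control 1 DAT. With 1 count in the control group the ratio was 267-fold, with a 95% exact counting interval of 47.6 to 10603, and the adjusted p was 5.00e-06 with edgeR, the smallest of the members.

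**Figure D3:**
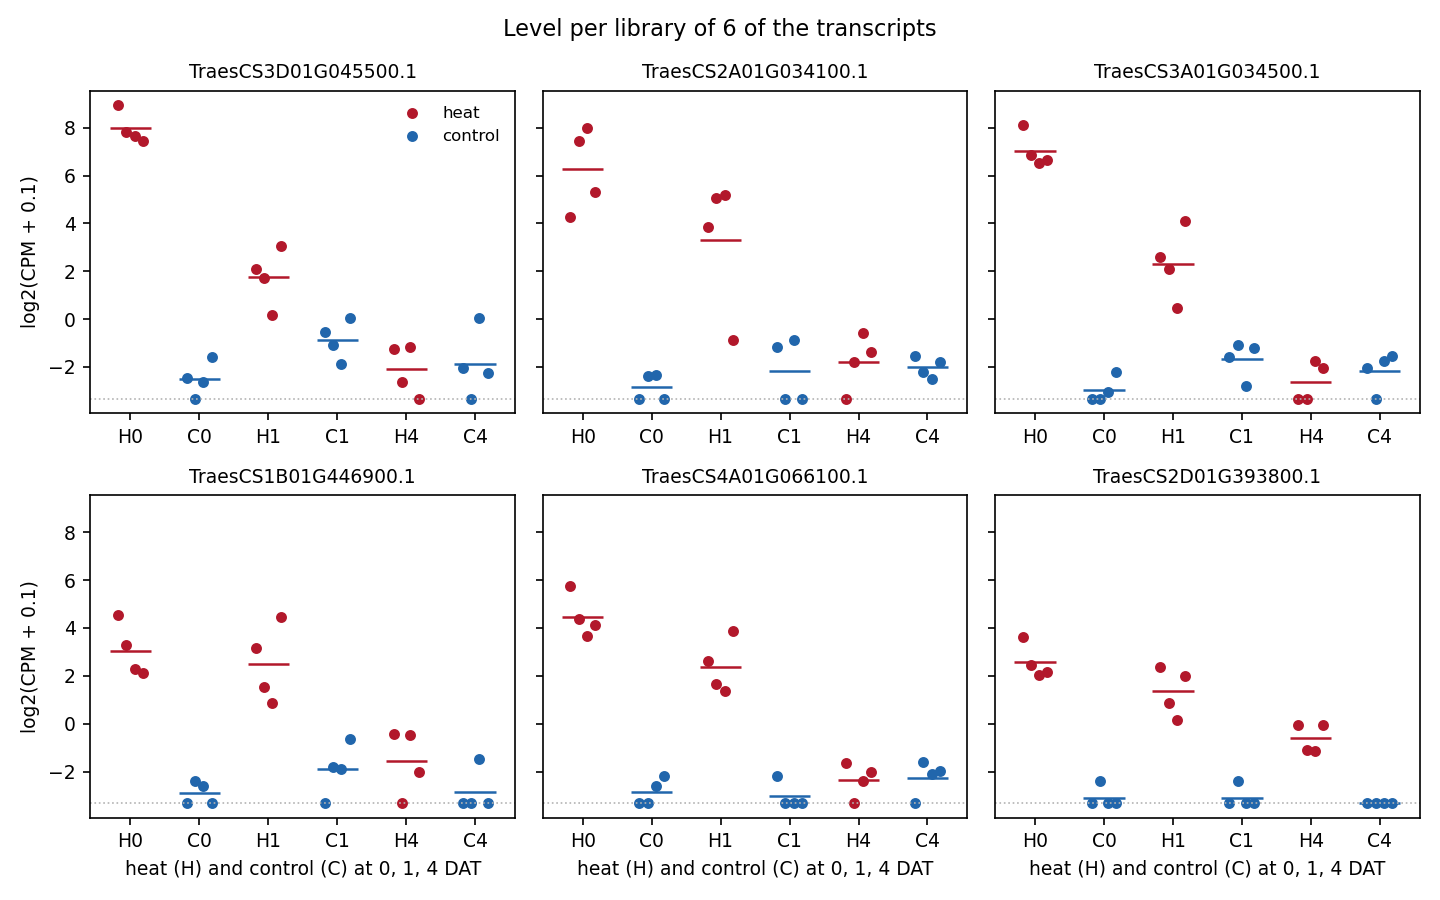
Level of 6 of the transcripts per library (points, log2(CPM + 0.1)) in heat (H, red) and control (C, blue) at 0, 1 and 4 DAT, with lines at the group means of the log values and a dotted line at a count of 0. TraesCS2A01G034100.1 was lowest in replicate 4 of heat 1 DAT (0.440 CPM), where TraesCS3A01G034500.1, TraesCS1B01G446900.1 and TraesCS4A01G066100.1 were highest.

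Of the 10 members most abundant at 0 DAT, TraesCS2A01G034100.1, TraesCS3A01G034500.1 and TraesCS2B01G047400.1 were also among the 8 highest called members at 1 DAT. The other members of the 10 were not. TraesCS3D01G045500.1 had 4.23, 3.19, 1.03 and 8.23 CPM in heat 1 DAT against 0.586, 0.367, 0.172 and 0.944 CPM in control 1 DAT. The groups did not overlap, the log2 fold change was 2.90 ± 0.55 (adjusted p = 0.00127 with edgeR), and the heat 1 DAT mean was 1.52% of the heat 0 DAT mean. TraesCS4D01G226000.1 had 1.46, 1.29, 0.600 and 3.87 CPM in heat 1 DAT against 0, 0, 0.257 and 0.329 CPM in control 1 DAT (log2 fold change 3.36 ± 0.64, adjusted p = 0.00132 with edgeR). Of the 10 highest at 0 DAT, TraesCS3D01G045600.1 and TraesCS3D01G045700.1 were not called at 1 DAT, with means of 0.572 and 0.603 CPM in heat against 0.126 and 0.103 CPM in control and adjusted p = 0.15 and 0.0682 with edgeR. The calls of TraesCS3A01G033900.1 (adjusted p = 0.0171 with edgeR) and TraesCS4A01G068300.1 (adjusted p = 0.0123 with edgeR) were lost without heat 1 DAT replicate 4, where their log2 fold changes were 2.82 and 2.84 against 3.75 and 3.70 with all libraries. That of TraesCS3A01G033900.1 was also lost without control 1 DAT replicate 2 (log2 fold change 3.33).

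After 4 days of recovery a single member was called. TraesCS2D01G393800.1 had 0.869, 0.370, 0.350 and 0.869 CPM in heat 4 DAT and 0 CPM in all 4 control libraries of 4 DAT. With 20 counts in heat and none in control its level was at least 7.36-fold higher in heat, taking 3 counts over the control group as the floor, and the adjusted p was 0.039 with edgeR's quasi-likelihood test. The same transcript had 5.09, 1.71, 1.01 and 3.92 CPM in heat 1 DAT against 0, 0.0918, 0 and 0 CPM in control 1 DAT, without overlap (ratio 126-fold, 95% exact counting interval 22.1 to 4997, adjusted p = 8.22e-05 with edgeR). At 1 and 4 DAT all its heat libraries lay above all its control libraries, while at 0 DAT the choice of members fixed this. A level under 1 CPM at 4 DAT rests on few reads.

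Of all transcripts tested 0.0697% were called higher and 0.11% lower at 4 DAT, and of the 91 members 1 was called higher and 0 lower. Higher calls were 38.8% of all calls, and 15% with scaling by total counts alone, under which no member was called (0.0165% of all transcripts higher and 0.0935% lower). At an unadjusted p under 0.05 with edgeR, 15 members were higher and 5 lower. DESeq2 called 2 members higher and 0 lower (0.451% and 0.75% of all), and the likelihood ratio test 3 and 0 (0.304% and 0.58% of all). The heat mean was above the control mean in 49 members, below it in 36 and equal in 6. All heat libraries lay above all control libraries in 6 members and below them in 1, TraesCS4A01G226700.2, against 1.09% and 2.38% of the transcripts tested. Among the 6, TraesCS7D01G211700.1, picked after its values were seen, had 1.30, 0.357, 1.31 and 0.434 CPM in heat 4 DAT against 0.137, 0.112, 0 and 0.0724 CPM in control 4 DAT, with a ratio of 12.3 (95% exact counting interval 3.68 to 60.1), and did not pass the test (adjusted p = 0.0844 with edgeR). The call of TraesCS2D01G393800.1 was lost in 11 of 16 fits without 1 library of 1 or 4 DAT, namely when any 1 of the 8 libraries of 4 DAT was left out, without control 1 DAT replicates 1 or 2 and without heat 1 DAT replicate 4. It was also lost without the 4 libraries rich in TraesCS1A01G000100.1, and its adjusted p ranged from 0.00183 to 0.276 over all alternatives. In the fits without 1 library its fitted log2 fold change was 5.51 to 6.08, against 5.82 with all libraries, values that depend on the prior count.

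**Figure D4:**
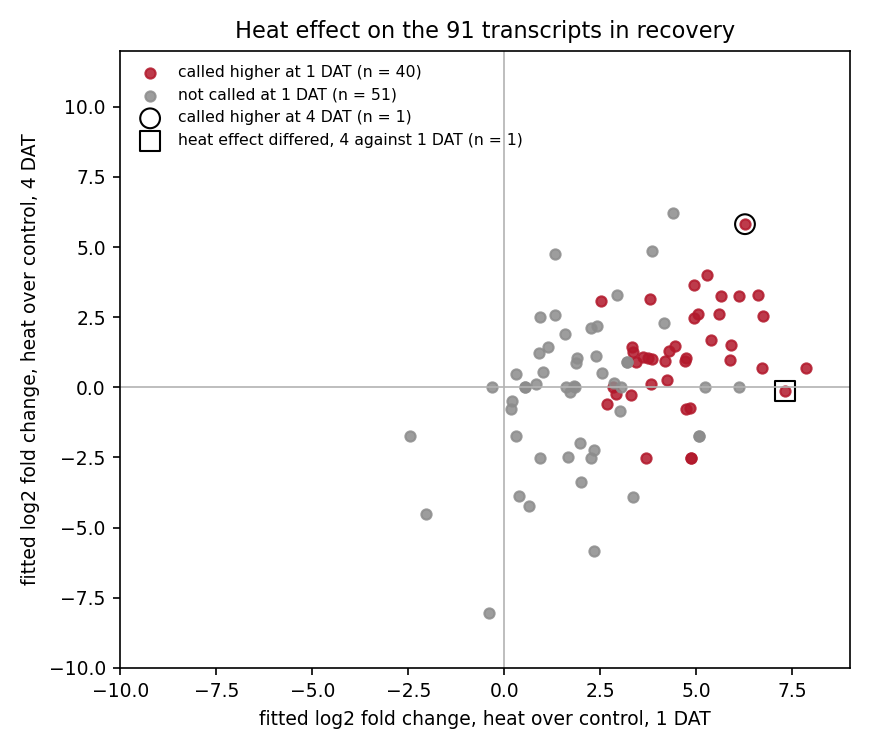
Fitted log2 fold change of heat over control at 1 DAT (x axis) and at 4 DAT (y axis) for the 91 transcripts, red where called higher at 1 DAT (40) and grey where not (51), with a circle on the member called at 4 DAT and a square on the one whose heat effect differed between the times. The medians were 3.21 at 1 DAT and 0.54 at 4 DAT, and fitted values of transcripts with a count of 0 in a group depend on the prior count of the fit.

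Within heat, the step from 1 to 4 DAT was tested directly. By edgeR's quasi-likelihood test 34 members were lower in heat 4 DAT than in heat 1 DAT and 0 were higher, against 4.19% lower and 2.71% higher among all transcripts tested. Higher calls were 39.3% of all calls, and 17.6% with scaling by total counts alone, under which 22 members were lower and 0 higher (3.11% and 0.666% of all transcripts). DESeq2 called 44 members lower and 0 higher (6.07% and 4.52% of all), the likelihood ratio test 53 and 0 (5.54% and 3.64% of all), and 0 members were higher at an unadjusted p under 0.05 with the quasi-likelihood test. The median log2 fold change was -3.40 over the members and 0.00 over all transcripts tested. Of the 40 members called higher than control at 1 DAT, 30 were among the 34. Both tests use the heat 1 DAT libraries, so a high level there favours both calls. The overlap is therefore no separate result. TraesCS2A01G034100.1 had 0, 0.185, 0.560 and 0.290 CPM in heat 4 DAT (log2 fold change -6.42 ± 1.24, adjusted p = 0.00328 with edgeR), a call that was lost without the 4 libraries rich in TraesCS1A01G000100.1. TraesCS3A01G034500.1 had 0, 0, 0.195 and 0.145 CPM in heat 4 DAT (log2 fold change -6.01 ± 0.80, adjusted p = 0.000139 with edgeR). When pools of plants entered the fit as blocks the count was 22 (2.6% of all transcripts lower and 1.48% higher), without the 4 libraries rich in TraesCS1A01G000100.1 it was 9, and it was 15, 18 and 21 without heat 4 DAT replicates 3, 1 and 2 and 20 and 19 without heat 1 DAT replicates 1 and 4. Every member called in these fits was lower in heat 4 DAT. The shares of all transcripts called are not given for the fits with libraries left out. Fewer calls everywhere and fewer calls among the members therefore cannot be told apart there. The members passed the filter through their heat 0 DAT counts here too, so the number tested is no result. In a fit to the libraries of 1 and 4 DAT alone, fewer members passed the filter and fewer were called, as given in the closing part.

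A change of the heat effect from 1 to 4 DAT was called for 1 member, against 1.55% of transcripts called lower and 0.312% higher in that test. Higher calls were 16.7% of all calls there, and 2.29% with scaling by total counts alone (1.33% lower and 0.0312% higher), which shifted the median log2 difference over everything tested by -0.15 and called the same member. TraesCS4A01G066100.1, given above for 1 DAT, had 0.217, 0, 0.0875 and 0.145 CPM in heat 4 DAT against 0.00107, 0.230, 0.130 and 0.152 CPM in control 4 DAT. Its heat and control libraries overlapped at 4 DAT and did not at 1 DAT, and the difference of the log2 fold changes was -7.47 ± 1.62 (adjusted p = 0.0193 with edgeR). For the other 90 the difference did not pass the test. An unadjusted p under 0.05 was found for 21 members, all with a lower heat effect at 4 DAT. DESeq2 called 8 members lower (3% of all lower, 1.13% higher) and the likelihood ratio test 6 (2.4% lower, 0.77% higher). The call of TraesCS4A01G066100.1 was lost without control 4 DAT replicate 2 or 4, where the difference was -7.20 and -7.24, and without the 4 libraries rich in TraesCS1A01G000100.1, where it was -7.31.

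The 2 annotated members were among the lower ones. TraesCS7A01G427300.1, the xyloglucan endotransglucosylase/hydrolase, had 5.84, 2.25, 3.71 and 6.37 CPM in heat 0 DAT against 0.210, 0.123, 0 and 0 CPM in control 0 DAT. At 1 DAT it had 1.90, 0.799, 0.711 and 4.40 CPM in heat against 0, 0.150, 0.405 and 0.620 CPM in control. These groups did not overlap, and the log2 fold change of 2.41 ± 0.86 did not pass the test (adjusted p = 0.0681 with edgeR), although DESeq2, the likelihood ratio test and the fit without heat 4 DAT replicate 4 called it.

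At 4 DAT the same transcript had 1.37, 0.686, 0.616 and 0 CPM in heat against 0.419, 0.134, 0.174 and 0 CPM in control. The groups overlapped only through the heat library without a count, and the log2 fold change of 2.18 ± 0.98 was not called (adjusted p = 0.487 with edgeR). TraesCS2A01G073500.1, the glycosyltransferase, had 3.23, 4.09, 2.48 and 3.16 CPM in heat 0 DAT against 0, 0, 0.191 and 0 CPM in control 0 DAT. It had 0.337, 0.594, 0.129 and 0.856 CPM in heat 1 DAT against 0, 0.0918, 0 and 0.438 CPM in control 1 DAT, which overlapped (adjusted p = 0.276 with edgeR), and 2 counts in each group of 4 DAT. In all, 595 transcripts carried such a text, 370 of them were tested, and 27 were higher and 19 lower in heat at 1 DAT. They are not an independent list, since they were selected from RNA cleavage data of the same plants. Of the 3 chaperone or stress protein entries among them 2 were tested, and neither was a member nor called.

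Several members lie side by side. By the gene numbers in their IDs, 24 of the 90 genes formed 8 runs in which neighbouring member genes were at most 10 places apart, on 6 chromosomes. The longest was on chromosome 3D, from TraesCS3D01G045500 to TraesCS3D01G046800, where 8 of 14 consecutive genes were members with a summed heat 0 DAT level of 588 CPM. The 6 genes between them were at most at 1.75 CPM in heat 0 DAT, and TraesCS3D01G046000, which held this highest level, was at 2.21 CPM in control 0 DAT. A second run on 3D, from TraesCS3D01G114900 to TraesCS3D01G115200, held 4 members in 4 places.

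The 2A run, from TraesCS2A01G034100 to TraesCS2A01G034600, held 2 members in 6 places, and its other 4 genes were also high in heat. TraesCS2A01G034200 and TraesCS2A01G034300 had 194 CPM each in heat 0 DAT against 0.17 CPM each in control 0 DAT, which is above the control limit. The run on 2D, from TraesCS2D01G033500 to TraesCS2D01G033900, held 2 members in 5 places and a further gene, TraesCS2D01G033700, at 174 CPM in heat 0 DAT. A silent gene, TraesCS2D01G033600, also lay in the 2D run, so the limits of the rule divided neighbours of which all but 1 were higher in heat than in control.

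**Figure D5:**
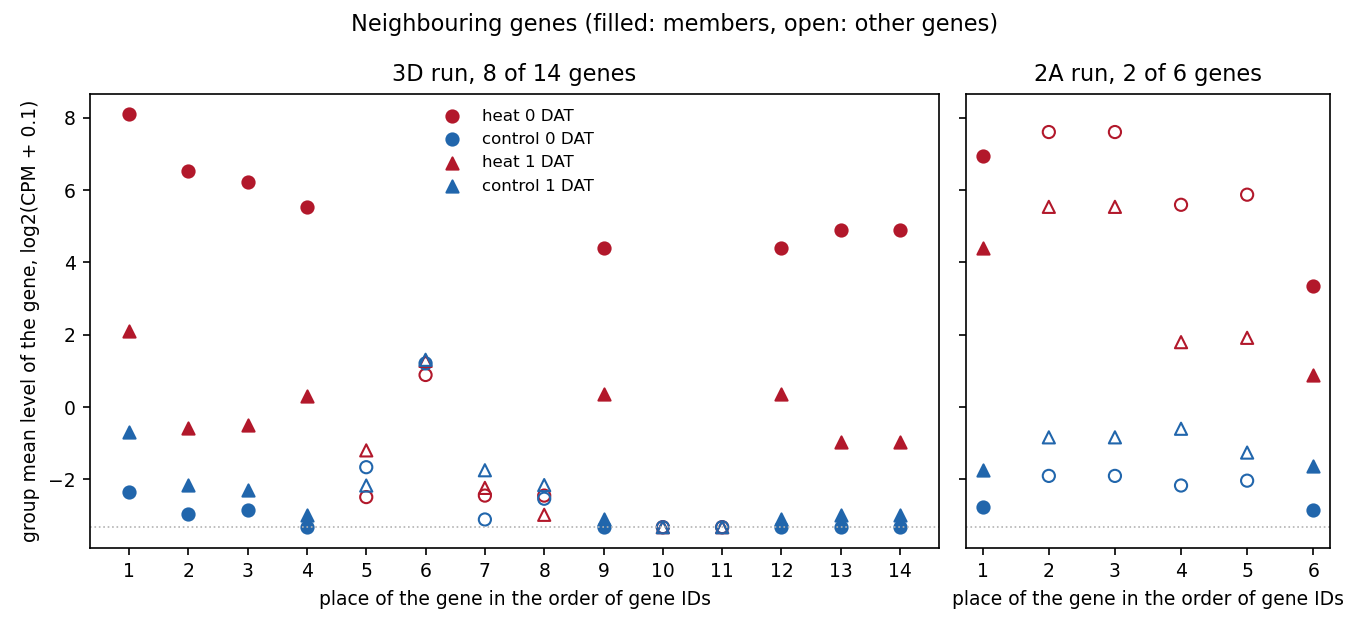
Group mean level, log2(CPM + 0.1), of neighbouring genes in the order of their IDs for the runs on chromosomes 3D (8 members of 14) and 2A (2 members of 6), at 0 DAT (circles) and 1 DAT (triangles) in heat (red) and control (blue), filled for member genes and open for others. In the 3D run the open points of heat 0 DAT stay at or below 1.75 CPM, and in the 2A run they reach 194 CPM.

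Identical values mark copies that the counting could not separate. In 4 pairs of members, 8 transcripts in all, the values were the same in all 24 libraries, and these were TraesCS3D01G046300.1 and TraesCS3D01G046600.1, TraesCS3D01G046700.1 and TraesCS3D01G046800.1, TraesCS3D01G115100.1 and TraesCS3D01G115200.1, and TraesCSU01G147100.1 and TraesCSU01G251500.1. Counting each pair once leaves 87 members, of which 39 were higher in heat 1 DAT. Of the 24 members in runs 13 were higher in heat 1 DAT, against 27 of the 67 outside runs, a difference that was not tested. In the runs the median share of the heat 0 DAT level left in heat 1 DAT was 2.82%, against 17.2% outside them, as a description over members that share libraries. The heat 0 DAT level, the denominator of this share, had a median of 33.4 CPM in the runs and 6.82 CPM outside them, and the share was 3.04% among the 46 members with the higher heat 0 DAT levels and 18.6% among the other 45. Over the subgenomes, 28 member genes were on A, 23 on B, 34 on D and 5 without a chromosome, which is 31.1%, 25.6%, 37.8% and 5.56% against 32.8%, 33.2%, 31.6% and 2.46% of all genes. Chromosome 3D held 14 of the 90, which is 15.6% against 4.93% of all genes, and 6 of the 14 are in the identical pairs above. Chromosomes 1A and 1D, with 4.03% and 4.11% of all genes, held none.

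Membership was decided per transcript, and a change of isoform and a different division of the reads among isoforms cannot be told apart. The member was the only transcript of its gene in 67 cases, in 6 further cases all transcripts of the gene together stayed under the control limit, and in 18 cases another transcript of the gene was on in control 0 DAT. Of these 18 members 3 were higher in heat 1 DAT, against 35 of the 67, a difference that was not tested. The median heat 0 DAT level was 4.10 CPM in the 18 and 16.5 CPM in the 67. The median share of it left in heat 1 DAT was 25.2% and 9.18%. TraesCS5A01G060400.3 had 16.3, 6.00, 12.3 and 7.70 CPM in heat 0 DAT and practically no counts in control 0 DAT, while its partner TraesCS5A01G060400.1 had a mean of 1.85 CPM in heat and 7.95 CPM in control at that time. In the control libraries of 4 DAT, TraesCS5A01G060400.3 had 10.9, 2.36, 0 and 2.59 CPM, and TraesCS5A01G060400.1 was lowest in replicate 1, where the member was highest. Its level in heat 4 DAT was 0.158 ± 0.315 CPM against 3.96 ± 4.77 CPM in control 4 DAT (SD, n = 4), and this difference was not called (adjusted p = 0.326 with edgeR).

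TraesCS6D01G028300.2 behaved in the same way, with 2.74 ± 3.55 CPM in heat against 3.27 ± 2.63 CPM in control at 1 DAT and practically 0 CPM in heat against 3.51 ± 4.06 CPM in control at 4 DAT, where the control libraries held 0, 6.75, 7.29 and 0 CPM to the nearest count. These 2 isoforms had the highest control levels of all members at both times. TraesCS6D01G295500.1 had the third highest control mean at 1 DAT, 0.912 CPM against 0.199 CPM in heat, and its gene was on in control through TraesCS6D01G295500.2, at 4.58 ± 1.13 CPM in control 0 DAT and 155 ± 43.3 CPM in heat 0 DAT. TraesCS2B01G385200.2 had the third highest control mean at 4 DAT, with 1.76, 0.237, 0 and 0.233 CPM against 1.09, 0.976, 1.02 and 2.19 CPM in heat 4 DAT. At 1 DAT it had 9.30, 5.67, 4.15 and 6.82 CPM in heat against 0, 0.583, 0.465 and 0 CPM in control, and was called higher (log2 fold change 4.44 ± 0.80, adjusted p = 0.000757 with edgeR). Summed per gene, 72 genes met the same limits, and each of them had a member among the 91.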

How the data were processed

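RNA of wheat leaves was sequenced in 24 libraries, 4 for each of 6 groups of treatment and time. The authors deposited a table of estimated counts per transcript, and the submitters' processing notes name Trimmomatic and kallisto. Their versions and the transcript index are not given in the sources used here. Estimated counts divide reads among similar transcripts by likelihood, so 38.8% of the values were not whole, and levels of isoforms and near-identical copies are uncertain. All 24 columns were matched to samples by name.

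CPM was computed from column totals (5403461 to 16112270) and is the level given in the text. For the tests the estimated counts were rounded to whole numbers and filtered with filterByExpr (minimum count 10, minimum total 15), which left 54517 transcripts of 47179 genes. Counts were scaled by TMM and fitted over all 24 libraries with 1 mean per group by edgeR's quasi-likelihood test (two-sided, Benjamini-Hochberg adjustment, calls at an adjusted p under 0.05). Fold changes and approximate standard errors (log2 fold change over the square root of F) are on this scale. Counting intervals are exact at 95% and, with the floor of 3 counts, cover counting error only. On simulated data for 54517 transcripts the heat comparison at 1 DAT recovered 22% of 100 changes of 2-fold and 68% of 100 changes of 4-fold, with 2 false calls. The changed transcripts were drawn from those with a mean over 1 CPM over all libraries. The median member was at 0.965 CPM in heat and 0.118 CPM in control at 1 DAT, so these shares are not those for the members.

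Members and lists were chosen with earlier results of these data known. Named were the 10 members highest in heat 0 DAT, up to 8 called members highest in heat at 1 and at 4 DAT, up to 5 called lower at either time, annotated members, the 3 highest in control at each later time, those nearest the limits, and up to 5 for the difference of effects. RefSeq gene names matched 0 of the IDs, so no member could be given a name from it. Alternatives were other scaling, DESeq2, edgeR's likelihood ratio test, no filter, fewer libraries, each library left out, a replicate block and gene sums.

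Between heat 4 and 1 DAT the pools should hold the same plants by design, an inference from the labels, and the correlations were -0.227 to -0.0315. The tools were R 4.3.3, edgeR 4.0.16, limma 3.58.1, DESeq2 1.42.0, Python 3.11.15, pandas 2.3.3, scipy 1.17.1 and matplotlib 3.10.9.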

Additional observations from a re-analysis of the deposited data

Results flagged for a closer look

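In 3 of 22 groups of 4 libraries tested at 1 and 4 DAT, 1 library stood apart from the other 3 by Dixon's criterion (its gap to the nearest library over the whole range), where chance flags about 1 in 20 groups. It was heat 1 DAT replicate 4 each time, with 24.4 CPM of TraesCS6A01G091400.1 (others 1.03 to 3.96 CPM), 18.5 CPM of TraesCS5B01G566400.1 (others 1.59 to 3.96 CPM) and 1.32 CPM of TraesCS3D01G045600.1 (others 0.257 to 0.363 CPM). The groups share libraries and are not independent. Apart from the summed levels of the members, only single named members in heat 1 DAT were tested. Part of them were named for a high mean there, so the rate of 1 in 20 does not hold for them. The libraries of 0 DAT, which chose the members, were not tested.

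The heat effect of TraesCS4A01G066100.1 differed between the times by a test of the difference itself, with a log2 fold change at 4 DAT minus that at 1 DAT of -7.47 (adjusted p = 0.0193 with edgeR).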

How the results depend on the processing

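Of 682 fold changes for 29 named results under the alternatives, 645 kept direction and side of the threshold, 27 lost a call, 5 gained one and 5 changed direction. All 5 were of TraesCS2A01G073500.1 at 4 DAT, not called in any fit, whose log2 fold change of 0.05 was -0.39 to 2.53 with 1 library left out. The 40 members higher in heat 1 DAT became 15 with only the 8 libraries of that time, where 20 members passed the filter, and ranged from 33 to 43 with 1 library left out. At 4 DAT the count of 1 was 0 with scaling by total counts, without the filter, with only the 8 libraries of that time (1 member tested), without the 4 libraries rich in TraesCS1A01G000100.1 and under a replicate block (replicate number), 2 with DESeq2 and 3 with the likelihood ratio test, and 0 to 1 with 1 library left out. The 34 members lower in heat 4 DAT than in heat 1 DAT became 22 with scaling by total counts, 53 with the likelihood ratio test, 8 with only the 16 libraries of 1 and 4 DAT (20 members tested), 9 without those 4 libraries, 22 with the replicate block for the pool of plants, and 15 to 34 with 1 library left out. The difference of heat effects, called for 1 member, was called for 8 with DESeq2, 6 with the likelihood ratio test, 0 without those 4 libraries and 0 to 1 with 1 library left out. Leaving out the 2 heat libraries with the highest summed level, chosen after the data were examined, gave 0 members at 4 DAT and 22 lower in heat 4 DAT. Where no share over all transcripts was given above, none is set beside these counts. A general loss of calls and a loss among the members cannot be told apart there. The causes were not tested. Same-numbered heat and control libraries correlated at 0.0431 to 0.235 at 1 DAT, where the own number was the best match in 3 of 4, and at 0.0685 to 0.209 at 4 DAT, in 4 of 4, and since not every pair was over 0.1 the numbers were not treated as pairs. With the replicate block 41 members were higher in heat 1 DAT and 1 differed between the times. The rule was met by 28 transcripts with a control count of 0, by 186 at a heat limit of 1 CPM and 45 at 5 CPM, and by 95 to 109 with 1 library left out. The 3 members at 2 CPM or more in every heat 1 DAT library became 18 at a limit of 1 CPM, 0 at 5 CPM, 7 with TMM totals and 3 to 12 with 1 library left out, while at 4 DAT the count was 0 under each of these. Levels under about 1 CPM, as at 4 DAT, rest on few reads.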
